A study of Homo sapiens with 4 samples.

Results

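The translation initiation and elongation factors were described across the 4 RNA-seq libraries of HT29 and HCT116 cells. Members were the protein-coding genes of GENCODE 44 whose symbol begins with EIF and a digit from 1 to 6, or with EEF and 1 or 2, without the EIF2AK kinases and without symbols holding a hyphen. The rule gave 65 members among the 61544 genes of the table, and it also took in relatives such as the methyltransferases of the elongation factors, which modify the factors and do not act at the ribosome themselves. EIF1AY is Y-linked and is named only, which left 64 members with values. HT29 and HCT116 are established colorectal cancer cell lines of epithelial origin. Each line gave 1 control library and 1 library from cells kept for 24 h with lipopolysaccharide (LPS), a lipid of the outer membrane of Gram-negative bacteria, at 1 ug/mL, and all 4 cultures shared the same medium with fetal bovine serum. The study set the lines side by side because their basal glucocorticoid receptor expression differs, and used them as models of the inflamed intestinal epithelium. No condition had a second library, so differences within a line carry counting error only and have no replicate check.

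Translation of a capped mRNA begins when eIF4E binds the cap and, with the scaffold eIF4G and the helicase eIF4A, recruits the small ribosomal subunit. That subunit carries eIF1, eIF1A, eIF3 and eIF5 together with the ternary complex of eIF2, GTP and initiator tRNA, and scans to the start codon. eIF2B reloads eIF2 with GTP, eIF5B joins the large subunit, eEF1A brings aminoacyl-tRNAs and eEF2 moves the ribosome along. In cells exposed to inflammatory or nutrient signals, much control falls on eIF2 phosphorylation and on the eIF4E-binding proteins, steps that act on the proteins and are not read by RNA counts.

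Counts summed to between 19105058 and 21268959 per library, and the members took 1.93% to 2.34% of them. TMM factors, which scale libraries so that most genes show no difference, lay between 0.944 and 1.06. Mitochondrial genes took 3.75% and 4.29% of counts in HT29, and 5.01% and 7.16% in HCT116, with the higher share in the LPS library of each line. Of 10 markers of colon epithelium, 0 were at 0 in all libraries. Their summed level was 18347 to 19633 CPM (counts scaled to library size) in HT29 and 5056 to 5107 CPM in HCT116. KRT8, at 11062 to 11720 CPM, and KRT18, at 3996 to 4516 CPM, made up most of the HT29 sum. KRT19 and CDX2 were higher in both HCT116 libraries, and the other markers in both HT29 libraries. In HCT116, CDX1, CDH17, VIL1 and LGALS4 had at most 10 counts. Fibroblast markers summed to 3.02 to 4.49 CPM in HT29 and to 97.1 to 98.6 CPM in HCT116, almost all from COL1A1, with 3 of 5 markers, DCN among them, at 0 throughout. Leukocyte markers summed to 1035 and 1050 CPM in HT29, nearly all from LYZ, which secretory epithelium also makes, and to at most 1.37 CPM in HCT116, while PTPRC, which marks leukocytes, had at most 2 counts. Endothelial markers summed to at most 2.44 CPM. The part of these markers in the results was not tested, and fewer cells of a type cannot be told apart from less RNA per cell.

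Several members could not be counted cleanly, which limits their values. A transcript of 8 members matched a further place in the reference at 98% identity or more over at least 50% of its length, namely EEF1G, EIF1AX, EIF3C, EIF3CL, EIF4E, EIF4H and EIF5AL1 on the main chromosomes, and EEF1D on an alternate contig. EEF1G, the structural subunit of the eEF1B exchange complex (ENSG00000254772.10, chr11:62559596-62574086, hg38, minus strand), was listed at 0 in all 4 libraries. Its exons overlap on the same strand those of a second annotated gene, ENSG00000255508, over 99.73% of their length, and that gene had 0 to 5 counts. EIF4EBP3 overlaps the read-through gene ANKHD1-EIF4EBP3 over 73.16% of its exons and had 3 to 11 counts, and the germline cap-binding paralog EIF4E1B had 0 counts in HT29, and 12 and 5 in HCT116. EIF4A1 overlaps other genes over 47.43% of its exons. The counting of reads with several hits or on overlapping genes is not given in the sources used here, and the part of these overlaps in the counts was not tested. With a mean of at least 1 TMM-normalized CPM, 61 members were kept in each line.

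Levels were compared between genes per kilobase of the canonical transcript and scaled to the same library sum (TPM-like), and each level in this paragraph is the mean of the 4 libraries. EEF1A1, which delivers aminoacyl-tRNA, was highest at 3404, followed by the translocase EEF2 at 2270, by EIF5A, which helps stalled ribosomes form peptide bonds, at 1231 and by EEF1B2, the exchange factor of eEF1A, at 1038. These were followed by EIF4G2, a scaffold that lacks the part that binds eIF4E, at 786 and EIF3B, a core eIF3 subunit, at 606. The median member stood at 74.1. The order rests in part on the length used. Per deposited gene length, EEF2 was above EEF1A1, at 2848 and 1906, and these were still followed by EIF5A, EEF1B2 and EIF4G2. EEF1A1 and EEF2 together gave 35.3% and 34.8% of all member counts in the HT29 control and LPS libraries, and 47.1% and 47.6% in HCT116. Within each other role the highest member was EIF1, which guards start codon choice, at 297, EIF2B5, the catalytic eIF2B subunit, at 67.4, EIF4EBP1, the inhibitor that sequesters eIF4E, at 106 and EEF2KMT, a methyltransferase of eEF2, at 17.8. Per deposited length, EIF2B1 at 62.2 was above EIF2B5 at 38.5, and EEF1AKMT4 at 22.9 above EEF2KMT at 21.9. Rows for processed pseudogenes of EEF1A1 (49 of them) held 53.2% to 56.5% as many counts as the gene itself, so the level of EEF1A1 is uncertain by reads placed between them.

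In HT29, 1 of 61 members lay above a log2 ratio of 0.58 (LPS over control, on TMM-normalized CPM after adding a prior count of 2) and 3 lay below -0.58, against 3.5% and 2.7% of the 13201 genes measured in that line. In HCT116 there was 1 on each side, against 3.56% and 2.34% of 14337 genes. These were EIF4E3, EEF1D, EIF3C and EIF3CL, 4 genes in all. For the rest, ratios were small in both lines, as the plot of the ratios by role shows.

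EEF1D encodes the delta subunit of the eEF1B complex, which recharges eEF1A with GTP. In HT29 it had 1372 counts in the control library and 99 in the LPS library, and in HCT116 it had 242 and 1339. The HT29 control and the HCT116 LPS library were thus the high pair, at 76.1 and 64.7 CPM, and the other pair was low, at 4.99 and 10.7 CPM. The log2 ratio was -3.91 in HT29 (95% counting interval -4.24 to -3.64) and 2.59 in HCT116 (2.40 to 2.80). Its 8 pseudogene rows held 24 to 36 counts per library and showed no such swing. These rows do not cover the further match to EEF1D in the reference, which lies on an alternate contig. Whether reads placed there had a part in the swing was not tested. Per kilobase of canonical transcript, EEF1D lay at 4.91 to 73.3 across the libraries, and EEF1B2 of the same complex at 974 to 1117.

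EIF3C, the subunit of eIF3 that contacts eIF1 and eIF5 (ENSG00000184110.15, chr16:28688558-28735727, hg38, plus strand), had 2190 and 777 counts in the HT29 control and LPS libraries, and 1832 and 892 in those of HCT116. Both LPS libraries were below both controls, with log2 ratios of -1.63 (-1.75 to -1.51) and -0.91 (-1.03 to -0.79). Its near-identical neighbour EIF3CL (ENSG00000205609.13, chr16:28379579-28403841, minus strand) had 1234 and 491 counts in HT29, a log2 ratio of -1.46 (-1.62 to -1.32). In HCT116 EIF3CL had 53 and 40 counts, a ratio whose interval of -0.91 to 0.34 includes 0. As reads of these genes cannot be assigned with certainty, their counts were also summed. The sum was 3424 and 1268 in the control and LPS libraries of HT29 (-1.57, -1.67 to -1.48), and 1885 and 932 in those of HCT116 (-0.89, -1.003 to -0.774). EIF3CL gave 36.0% and 38.7% of the summed per-length level in HT29 but 2.81% and 4.29% in HCT116, and by deposited gene length 56.1% and 58.9%, and 6.16% and 9.23%.

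EIF4E3, a cap-binding paralog of eIF4E at low level (ENSG00000163412.13, chr3:71675414-71754773, minus strand), had 39 and 85 counts in the HT29 control and LPS libraries, a log2 ratio of 0.95 (0.42 to 1.57), and 126 and 120 in HCT116, a ratio of 0.06 (-0.32 to 0.43). The HT29 control was the lowest of the 4 libraries.

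**Figure D1:**
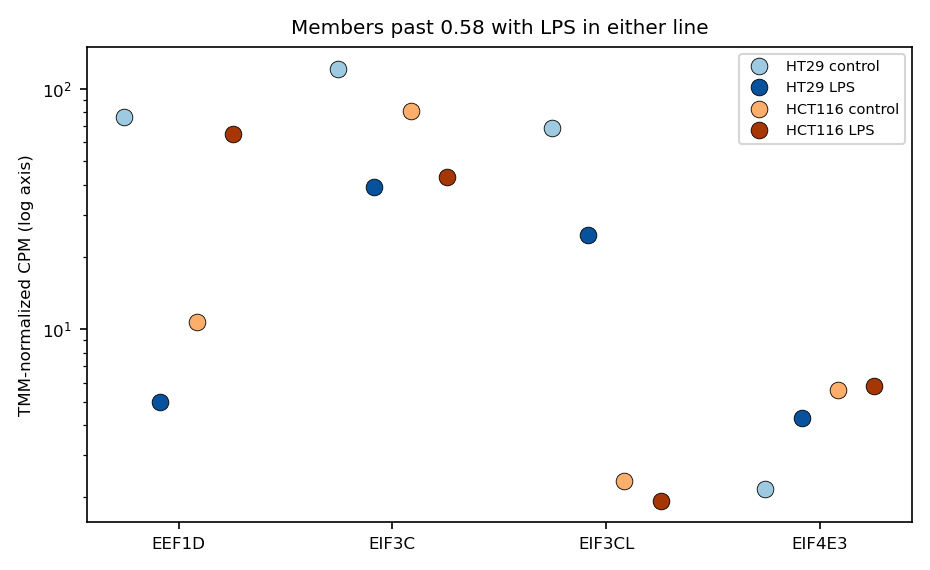
TMM-normalized CPM (log axis) of the 4 members past 0.58 with LPS in either line, 1 point per library. EEF1D is high in the HT29 control and the HCT116 LPS library, at 76.1 and 64.7 CPM, EIF3C is lower in both LPS libraries than in both controls, and EIF3CL is at 1.93 and 2.34 CPM in HCT116.

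Leaving out EEF1D, EIF3C and the other genes with a copy or over 50% exon overlap left 54 members in each line, of which 1 in HT29 (EIF4E3) and 0 in HCT116 lay past 0.58. This choice was made after the data were seen.

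Most of the small ratios lay below 0 in HT29 and on both sides of 0 in HCT116, a contrast that was not tested. In HT29, 10 of 61 members (16.4%) had a ratio above 0, against 48.2% of all genes, and their median was -0.06, against -0.01 over all genes. In HCT116, 30 of 61 (49.2%) lay above 0, against 49.5% of all genes, with a median of -0.00125, against -0.00251. The counting interval lay wholly below 0 for 28 members in HT29 and 19 in HCT116, and wholly above 0 for 4 and 16. Over all genes measured in each line, 18.5% lay below 0 in this way in HT29 and 18.2% in HCT116, and 15.9% and 17% above. Intervals narrow with the count, and these shares are not matched to the level of the members. With library size alone as the scale, or after trends with gene length and with GC content were removed, 15 members lay above 0 in HT29. In HCT116, 25 lay above 0 with library size alone, with a median of -0.03. Across all genes, the HT29 ratios increased with gene length (Spearman rho 0.168 over 13192 genes) and the HCT116 ratios with GC content (rho 0.229 over 14324 genes). Genes are not independent replicates, and the part of these trends in the member ratios was measured only by removing them.

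**Figure D2:**
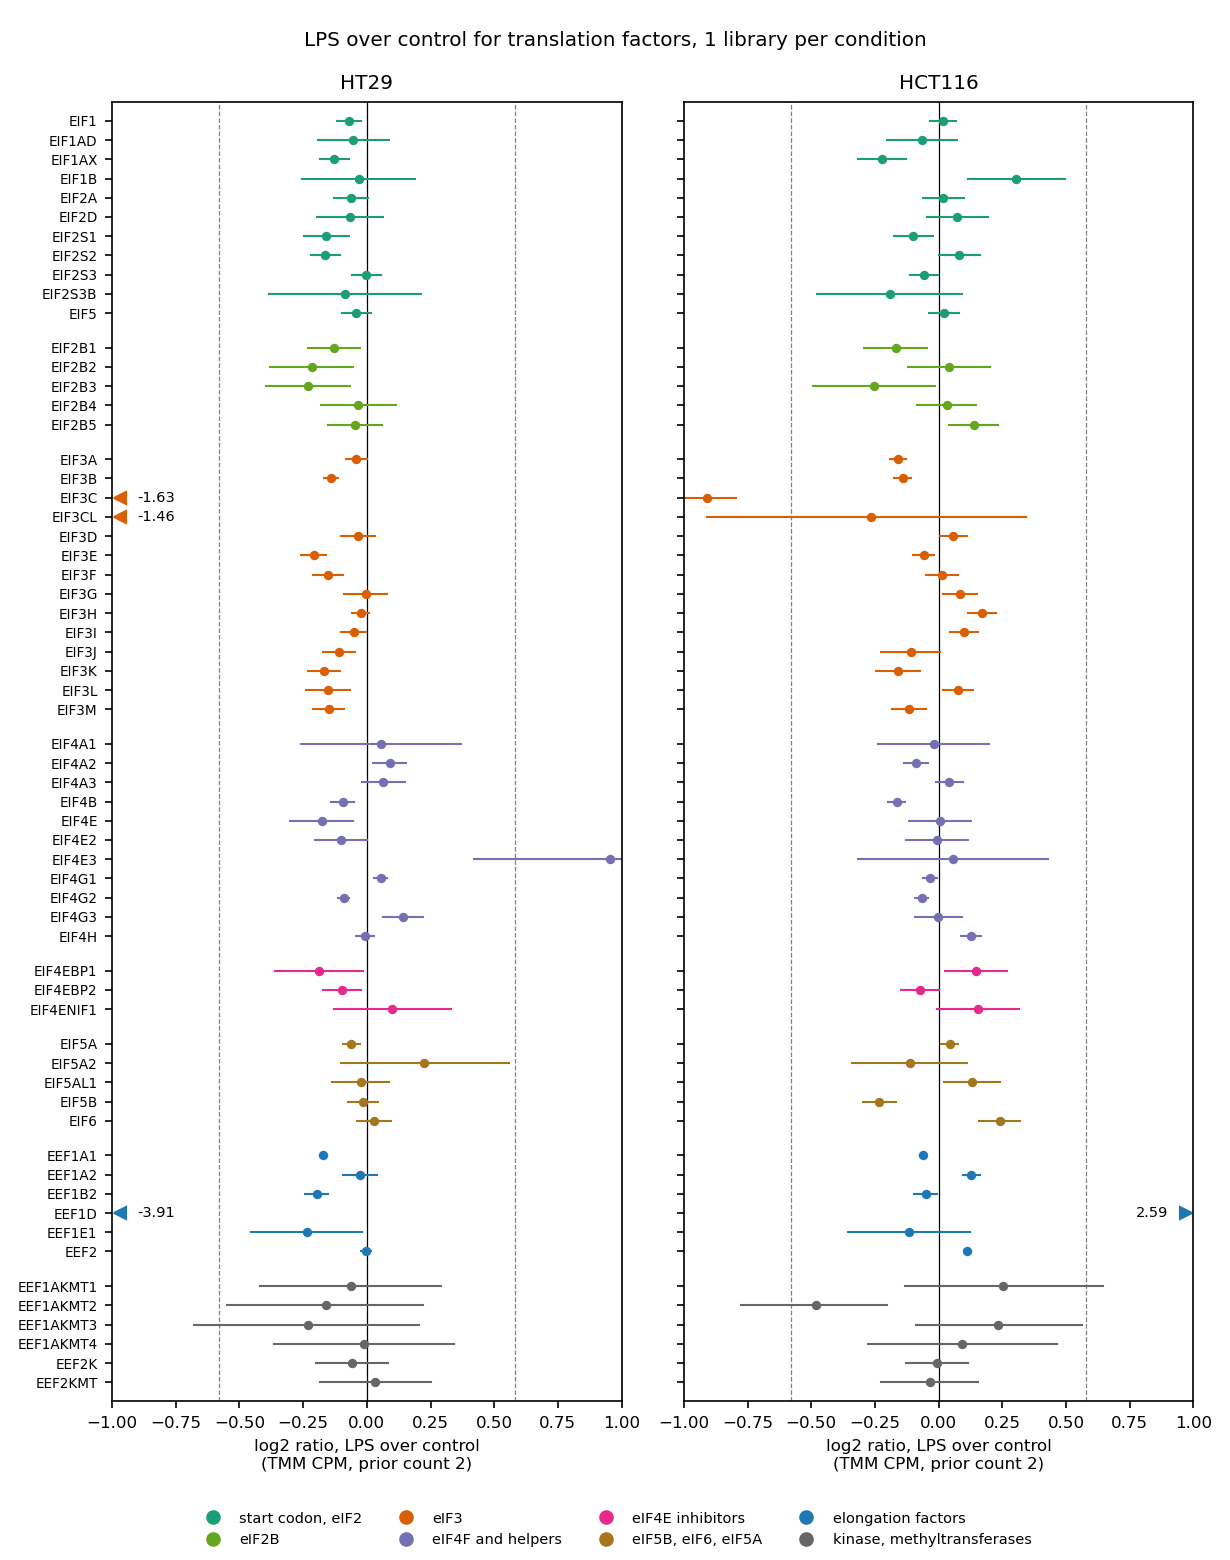
Log2 ratio of LPS over control (horizontal axis, on TMM-normalized CPM after adding a prior count of 2) for 61 members in HT29 and HCT116, coloured by role. Bars are 95% counting intervals, dashed lines mark 0.58 either side of 0, and triangles give the value of points beyond the axis. In HT29, 51 of 61 points lie left of 0, and in HCT116 31 do.

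By role, start codon and eIF2 members had a median of -0.07 in HT29, with 0 of 11 above 0, and of 0.02 in HCT116, with 6 of 11 above 0. The paralog EIF1B stood apart in HCT116, at 431 and 487 counts in control and LPS, a ratio of 0.30 (0.11 to 0.49), whereas EIF1 was at 286 and 290 CPM. In HT29, EIF1B had 328 and 353 counts and EIF1 6742 and 7072, with ratios of -0.03 and -0.07. The 5 eIF2B subunits lay below 0 in HT29 (median -0.13), and 3 of 5 lay above 0 in HCT116.

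The eIF3 genes had medians of -0.14 in HT29, where 0 of 14 were above 0, and -0.08 in HCT116, where 6 of 14 were. EIF3B, the largest by level, was at 1167 and 1059 CPM in the HT29 control and LPS libraries and at 691 and 627 CPM in HCT116, ratios of -0.14 in each. EIF3H, a non-core subunit, was at 716 and 704 CPM in HT29, and at 235 and 265 CPM in HCT116, a ratio of 0.17 (0.11 to 0.22).

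Of the 11 measured eIF4F members and helpers, 6 lay above 0 in HT29 (median 0.05) and 4 in HCT116 (median -0.01). The scaffold paralogs did not share a direction in HT29. EIF4G1, the main scaffold, was at 1289 and 1340 CPM (0.06, 0.03 to 0.08) and EIF4G3 at 133 and 146 CPM (0.14, 0.06 to 0.22), whereas EIF4G2 was at 1800 and 1689 CPM (-0.09, -0.11 to -0.07). In HCT116 their ratios were -0.03, -0.00125 and -0.07. The cap-binding EIF4E itself had 1092 and 1063 counts in the control and LPS libraries of HT29 (-0.18, -0.30 to -0.05) and 1135 and 1042 in HCT116 (0.00484, -0.12 to 0.13).

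The inhibitor EIF4EBP1 was at 31.6 and 27.8 CPM in HT29 (-0.19, -0.36 to -0.02) and at 48.8 and 54.0 CPM in HCT116 (0.15, 0.03 to 0.27). Its paralog EIF4EBP2 was at 160 and 150 CPM in HT29 and at 136 and 130 CPM in HCT116, below 0 in both lines. EIF5A had 14382 and 15184 counts in the HT29 libraries, and 15097 and 14236 in the HCT116 libraries, ratios of -0.06 and 0.04, and its paralog EIF5A2 had 138 and 178, and 356 and 301, ratios of 0.23 (-0.10 to 0.56) and -0.11 (-0.34 to 0.11).

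Of the 6 measured elongation factors, 0 lay above 0 in HT29 (median -0.18) and 3 in HCT116 (median 0.03). EEF1A1 was at 5273 and 4684 CPM in HT29 (-0.17, -0.18 to -0.16) and at 6256 and 5994 CPM in HCT116 (-0.06, -0.07 to -0.05). EEF2 was at 2355 and 2350 CPM in HT29, a ratio of -0.00286, and at 4086 and 4417 CPM in HCT116, a ratio of 0.11. EEF1E1, which also belongs to the multi-tRNA synthetase complex, had 365 and 341 counts in HT29 (-0.24, -0.45 to -0.02). Among the enzymes that modify elongation factors, EEF1AKMT2, a lysine methyltransferase of eEF1A, had 262 and 171 counts in HCT116 (-0.48, -0.77 to -0.20) and 117 and 115 in HT29 (-0.16, -0.55 to 0.22).

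The LPS shift averaged over both lines was tested with edgeR's quasi-likelihood test on all 4 libraries with the line as a term, where the lines stand in for replicates and 1 residual degree of freedom remains. Of 61 members, 0 were called higher and 2 lower, against 0.124% and 0.0964% of 14516 genes. These were EIF3C (log2 fold change -1.27, SE 0.11, edgeR adjusted p = 7.69e-06) and EIF3CL (-1.18, SE 0.19, edgeR adjusted p = 0.00639), which have copies of each other. The ratio of EIF3CL was -1.46 in HT29 and -0.27 in HCT116, where its interval of -0.91 to 0.34 includes 0. Its call therefore does not show a shift in both lines. At an unadjusted p under 0.05 there were 4 members, EIF1AX and EIF3K besides EIF3C and EIF3CL, against 7.58% of all genes, and all 4 were lower with LPS. DESeq2 called EIF3C alone (adjusted p = 0.0289), against 0.558% of all genes in either direction and 0.22% by edgeR. It gave no adjusted p for EIF3CL and a number of other members, EEF1D, EIF4E3 and EIF4EBP1 among them. For those members the lack of a DESeq2 call is not a test result, and the 0.558% counts genes without an adjusted p in its base. Without the line as a term edgeR called 0 members.

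In all, 14 members had intervals below 0 in both lines, among them EIF1AX, EIF3K, EIF3B, EIF3M and EIF4B, and 0 had intervals above 0 in both, against 6.34% and 4.41% of the 12085 genes measured in both lines. Intervals lay clear of 0 in opposite directions for 8 members, against 4.45% of those genes. EIF1AX, the gene on the X chromosome for the scanning factor eIF1A, was at 279 and 256 CPM in HT29 and at 93.0 and 79.8 CPM in HCT116 (edgeR adjusted p = 0.514 for LPS).

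The proteins that act on these factors were described from 82 genes in 9 lists. None of the 78 tested was called for LPS by edgeR, with 10 (12.8%) at an unadjusted p under 0.05, against 7.58% of all genes, whereas DESeq2 called RHEB (log2 fold change -0.29, adjusted p = 0.0259) and ODC1 (-0.17, adjusted p = 0.0161), the latter named after its value was seen, against the 0.558% of all genes it called. No measured gene of the lists lay past 0.58 in either line. Among the eIF2 kinases and their partners, ATF4, the transcription factor made when eIF2 is phosphorylated, was at 299 and 256 CPM in HT29 (-0.22, -0.28 to -0.17) and at 261 and 277 CPM in HCT116 (0.09, 0.04 to 0.14). DDIT3, its target, had 87 and 126 counts in control and LPS cells of HT29, and 130 and 140 in those of HCT116, with both intervals including 0. In the mTORC1 and MNK list, RHEB, the activator of mTORC1, was at 165 and 138 CPM in HT29 and at 54.5 and 42.8 CPM in HCT116, lower with LPS in both. RPS6 was at 1071 and 878 CPM in HT29 (-0.29) and at 894 and 890 CPM in HCT116 (-0.00611).

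In the other lists, the recycling factor DENR lay at -0.17 in HT29 and -0.25 in HCT116, and PAIP2, an inhibitor of the poly(A)-binding protein, at -0.24 and 0.01. The termination factor GSPT1 lay at -0.11 and -0.06, and HBS1L, of ribosome rescue, at -0.08 and -0.23. Of the enzymes that supply or carry out hypusine formation on eIF5A, AMD1 lay at -0.11 and -0.23 and DOHH at -0.23 and -0.04. In the multi-tRNA synthetase complex KARS1 lay at 0.04 and 0.17. The mitochondrial release factors MTRF1 and MTRF1L lay at 0.21 and 0.33, and at 0.29 and 0.09. The diphthamide enzymes DPH6 and DPH1 lay at -0.20 and 0.44, and at -0.13 and 0.41, and DRG1 and GTPBP2 at -0.29 and -0.19, and at 0.23 and 0.05.

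The lines themselves were compared with the same test, with LPS as a term, so that the control and LPS libraries of a line stand in for replicates. Of 61 members 48 (78.7%) were called, 27 higher in HT29 and 21 higher in HCT116, against 76.6% of all genes, 38% and 38.6% by direction. Differences over 2-fold were fewer. They were found in 9 members (14.8%), against 39.9% of all genes, and the median absolute log2 fold change was 0.47, against 0.76. The 9 include EIF3CL, whose reads cannot be told from those of EIF3C with certainty. DESeq2 called 45 members, against 70% of all genes. With library size alone the split was 21 and 25, and the median over all genes moved by -0.15. Both libraries of one line lay on one side of both libraries of the other in 56 of 61 members, against 87.7% of all genes, and EEF1D, EIF2B5, EIF2D, EIF2S3B and EIF3C were the exceptions. These p-values measure the spread between treatments of the same line, not between cultures.

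**Figure D3:**
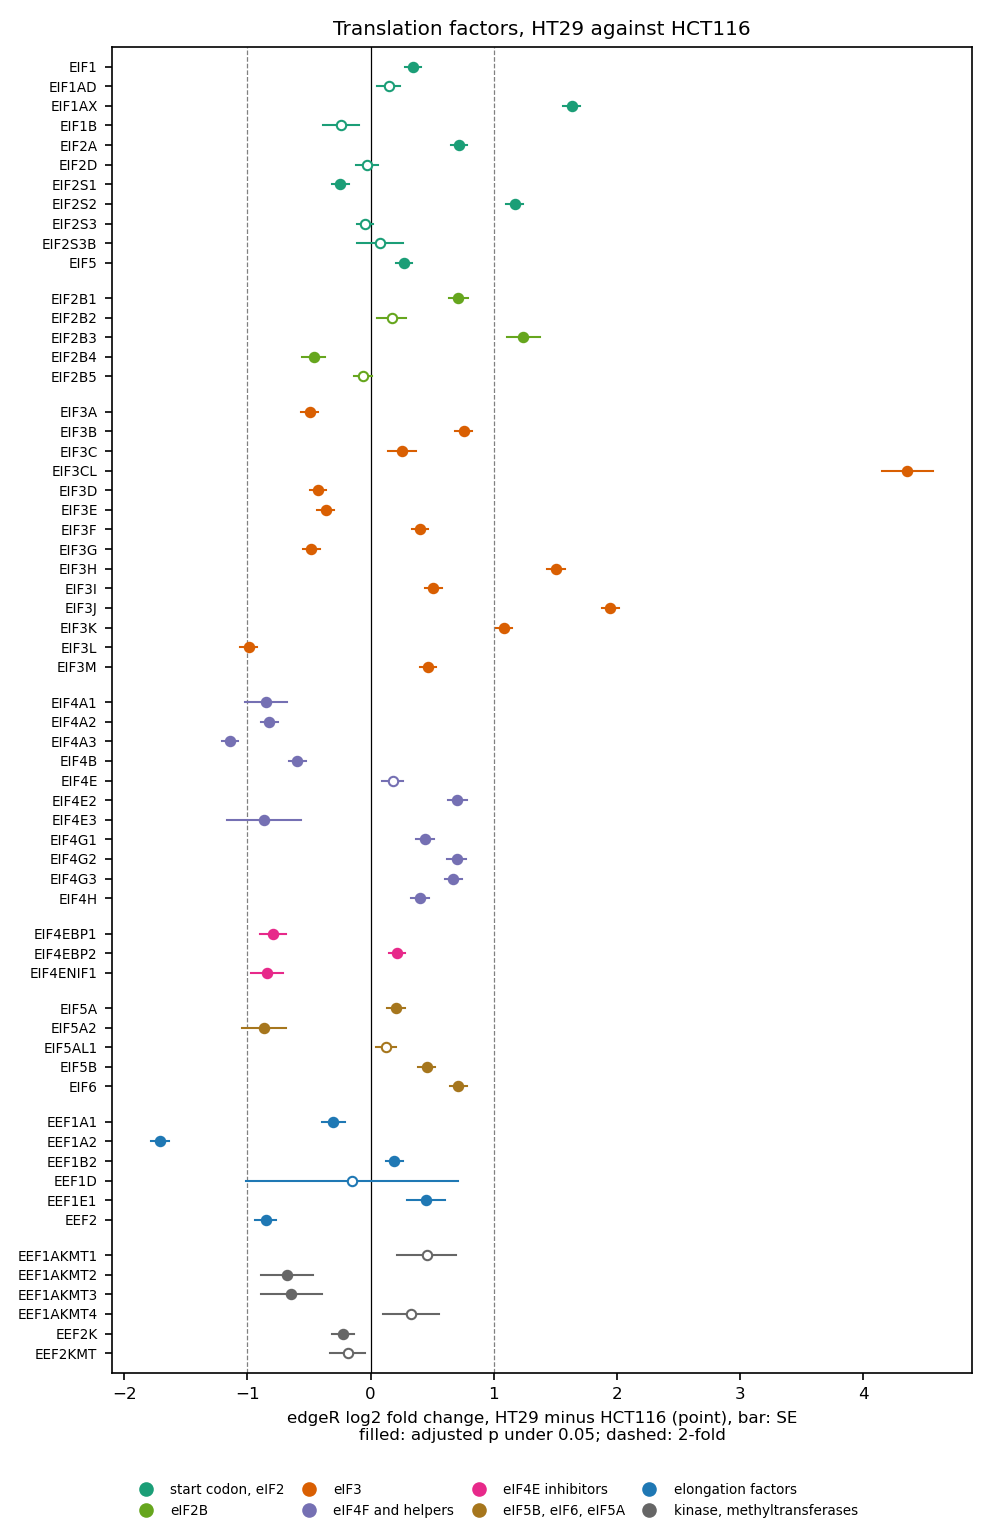
Log2 fold change of HT29 minus HCT116 from edgeR (horizontal axis) for 61 members, by role, with the SE as a bar and filled points at an adjusted p under 0.05. Dashed lines mark 2-fold. EIF3CL, which is near-identical to EIF3C, lies at 4.36, EIF3J at 1.95 and EEF1A2 at -1.71, and most other points lie within 2-fold.

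Among elongation factors, EEF1A2, the paralog of EEF1A1 that muscle and neurons use (ENSG00000101210.13, chr20:63488013-63499239, minus strand), showed the largest difference toward HCT116. It was at 199 and 195 CPM in HT29 and at 616 and 673 CPM in HCT116 (log2 fold change -1.71, SE 0.07, edgeR adjusted p = 1.21e-14). Its share of the summed per-length level of both EEF1A genes was 6.95% and 7.61% in HT29, and 16.3% and 18.2% in HCT116. EEF2 was 1.81-fold higher in HCT116 (-0.85, SE 0.09, edgeR adjusted p = 2.92e-08). EEF1A1 was 1.23-fold higher there (-0.30, SE 0.10), a call lost in 2 of the 11 settings tried, the one reported included. EEF1B2 and EEF1E1 were higher in HT29, by 0.19 and 0.45. The calls held in 7 and 8 of 11 settings, and library size alone was among those where both were lost. EEF1D was not called (-0.15, SE 0.86, edgeR adjusted p = 0.877), with a log2 ratio of HT29 over HCT116 of 2.82 between the controls and of -3.67 between the LPS libraries.

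Of the start codon and eIF2 members, EIF1AX was 3.10-fold higher in HT29 (1.63, SE 0.07, edgeR adjusted p = 1.2e-14), with 5035 and 5074 counts there and 2103 and 1651 in HCT116. The 3 subunits of eIF2 did not share a direction between the lines. EIF2S2, the beta subunit, was at 275 and 245 CPM in HT29 and 112 and 119 CPM in HCT116 (1.17, SE 0.07, edgeR adjusted p = 6.46e-12). EIF2S1, the alpha subunit that the eIF2 kinases phosphorylate, was higher in HCT116 by a factor of 1.19 (-0.25, SE 0.07), a call lost in 2 of 11 settings. EIF2S3, the gamma subunit that holds GTP, was at 254 to 268 CPM in all 4 libraries and was not called (-0.05, SE 0.06, edgeR adjusted p = 0.508). The eIF2B subunits were split as well. EIF2B3, part of the catalytic pair with EIF2B5, had 626 and 587 counts for HT29 against 335 and 257 for HCT116 (1.24, SE 0.13, edgeR adjusted p = 4.72e-08). EIF2B1 was higher in HT29 by 0.71 and EIF2B4 in HCT116 by a factor of 1.38, and EIF2B2 and EIF2B5 were not called.

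All 14 eIF3 genes were called, against 76.6% of all genes. Of these, 9 were higher in HT29 and 5 (EIF3A, EIF3D, EIF3E, EIF3G and EIF3L) higher in HCT116, against 38% and 38.6% of all genes. EIF3CL had the largest difference of any member, at 1234 and 491 counts in HT29 against 53 and 40 in HCT116 (4.36, SE 0.21, edgeR adjusted p = 1.37e-13). EIF3J, a loosely bound subunit that helps dissociate ribosomes, was at 224 and 208 CPM in HT29 and 58.2 and 54.0 CPM in HCT116, 3.85-fold higher in HT29 (1.95, SE 0.07, edgeR adjusted p = 1.08e-15). EIF3H was 2.84-fold higher in HT29 (1.51, SE 0.07), and EIF3K, a small outer subunit, 2.12-fold (1.08, SE 0.07). EIF3L, the partner of EIF3K at the edge of the complex, was at 118 and 106 CPM in HT29 and 217 and 229 CPM in HCT116, 1.99-fold higher in HCT116 (-0.99, SE 0.07, edgeR adjusted p = 8.23e-11), and 41.13% of its exons overlap a lncRNA. EIF3C, at 0.26 (edgeR adjusted p = 0.0445), was called in 6 of 11 settings, and its fold change was -0.67 without the HT29 control library.

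The per-length levels of the eIF3 genes spanned 47.3 to 759 in the HT29 control and 1.86 to 518 in the HCT116 control, from EIF3CL up to EIF3B in HT29 and EIF3E in HCT116. This order rests on the length used. From canonical transcript length to deposited gene length, EIF3E moved from rank 4 to 12, EIF3I from 2 to 9 and EIF3A from 8 to 2, while EIF3B stayed at rank 1.

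**Figure D4:**
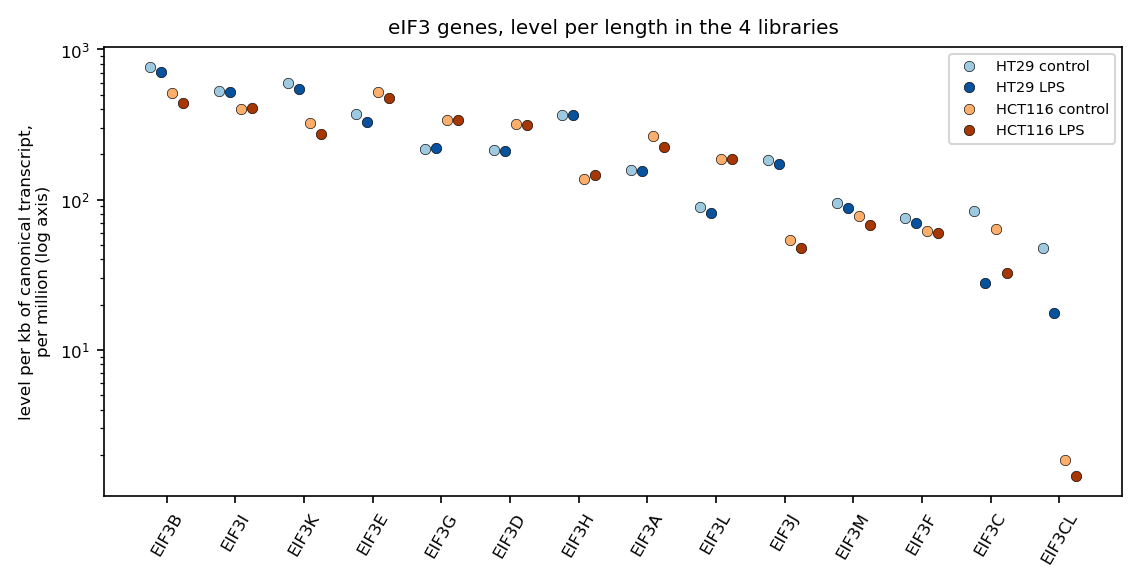
Level per kilobase of canonical transcript, scaled to the same library sum (log axis), of the 14 eIF3 genes in the 4 libraries, ordered by the mean. EIF3J, EIF3H and EIF3K are higher in both HT29 libraries, EIF3L and EIF3E in both HCT116 libraries, and EIF3CL spans 1.45 to 47.3.

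In the eIF4F group the helicases were higher in HCT116 and the scaffolds in HT29. EIF4A3, the helicase of the exon junction complex, was at 118 and 123 CPM in HT29 and 262 and 269 CPM in HCT116 (-1.14, SE 0.07, edgeR adjusted p = 2.64e-12). EIF4A2 was at 195 and 208 CPM in HT29 and 368 and 346 CPM in HCT116 (-0.82, SE 0.07). EIF4A1, at 160 and 183 counts for HT29 against 371 and 335 for HCT116, was 1.80-fold higher in HCT116. EIF4A2 gave 95.2% to 95.5% of the summed per-length level of the pair in every library. This share and the EIF4A1 difference are uncertain, as 47.43% of the EIF4A1 exons overlap other genes. The part of that overlap in its counts was not tested. EIF4G1, EIF4G2 and EIF4G3 were higher in HT29 by 0.44, 0.70 and 0.67, with EIF4G3 at 133 and 146 CPM there and at 87.6 and 87.5 CPM in HCT116. The cap-binding protein EIF4E was not called (0.18, SE 0.09, edgeR adjusted p = 0.0649). EIF4E2, its paralog that represses the mRNAs it binds, was higher in HT29 by 0.71, at 85.7 and 79.9 CPM against 50.9 and 50.6 CPM, and gave 71.1% to 78.6% of the per-length level of the EIF4E, EIF4E2 and EIF4E3 genes by canonical length. By deposited length its share was 29.3% to 38.4%, and EIF4E was the highest of the 3. Pseudogene rows of EIF4E held 60.9% to 78.1% as many counts as EIF4E itself. EIF4E3 was higher in HCT116 (-0.87, SE 0.30, edgeR adjusted p = 0.0135), a call held in 6 of 10 settings.

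The inhibitors differed in opposite directions. EIF4EBP1 was 1.73-fold higher in HCT116 (-0.79, SE 0.11, edgeR adjusted p = 1.14e-06), and EIF4EBP2 1.16-fold higher in HT29 (0.22, SE 0.07, edgeR adjusted p = 0.00526). The EIF4EBP2 call held in 8 of 11 settings, and library size alone was among those where it was lost. EIF5A2, a paralog of EIF5A with a narrower tissue range, was at 7.65 and 8.97 CPM in HT29 and at 15.7 and 14.5 CPM in HCT116 (-0.87, SE 0.18, edgeR adjusted p = 0.000214). EIF5A was higher in HT29 by 0.20, a call kept in 7 of 11 settings. EIF6, which keeps the ribosomal subunits apart, and EIF5B were higher in HT29 by 0.71 and 0.46. Of the enzymes acting on elongation factors, EEF1AKMT2, EEF1AKMT3 and the eEF2 kinase EEF2K were called higher in HCT116, calls held in 10, 8 and 6 of 11 settings, and EEF1AKMT1, EEF1AKMT4 and EEF2KMT were not called, with EEF2KMT at 331 and 373 counts for HT29 and at 484 and 432 for HCT116.

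Of the members not yet described, EIF2A, an alternative carrier of initiator tRNA, was higher in HT29 by 0.72, EIF1 by 0.34 and EIF5, the GTPase activator of eIF2, by 0.27, the last a call lost with library size alone. EIF3F, EIF3I and EIF3M were higher there by 0.40, 0.51 and 0.47, and EIF4H, a helper of the eIF4A helicases, by 0.40. EIF4B, its relative, was 1.51-fold higher in HCT116 and EIF4ENIF1, the transporter of eIF4E into the nucleus, 1.79-fold. EIF1AD, EIF1B, EIF2D, EIF2S3B and EIF5AL1 were not called, with log2 fold changes from -0.24 (EIF1B) to 0.15 (EIF1AD).

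Of the 78 tested partner genes, 55 (70.5%) were called between the lines, 31 higher in HT29 and 24 in HCT116, and 15 (19.2%) were over 2-fold, against 76.6% called and 39.9% over 2-fold of all genes. Among the eIF2 kinases and their partners, 2 were higher in HT29 and 3 in HCT116. IMPACT, an inhibitor of the kinase GCN2, was at 12.7 and 12.9 CPM in HT29 and 44.6 and 39.5 CPM in HCT116 (-1.71, SE 0.13), and EIF2AK4, which encodes GCN2, at 44.2 and 43.9, and 110 and 105 CPM (-1.29, SE 0.07). In the mTORC1 and MNK list 5 were higher in HT29, with RHEB at 1.64 and RPS6KB2, an S6 kinase, at 1.11, and 8 in HCT116.

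The poly(A)-binding and accessory list held 6 and 4 called genes, with BZW2 at 1.11 and PAIP2B at -0.93. All 4 tested termination and rescue genes were higher in HT29, led by GSPT1 at 1.22 and PELO at 0.58. The hypusine list held 4 and 2, and its polyamine enzymes AMD1 and SMS lay at 1.31 and 1.14. The synthetase complex held 4 and 3, with KARS1 at 0.78 and QARS1 at -0.60. Of 8 mitochondrial factors 3 were called, all higher in HT29, with MTIF3 at 1.08 and GFM1 at 1.07. Among the diphthamide enzymes, DPH6 lay at 1.01 and DPH1 at -0.77, and in the last list GTPBP2 lay at 0.72 and DRG1 at -0.58. PABPC3, GSPT2 and VARS1 were listed at 0 in all libraries, and TSFM had 5 to 14 counts. Partner genes were not checked for copies or for overlap with other genes, so a listed 0 is not evidence of absent RNA.

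Many mRNAs of the translation machinery begin with a pyrimidine tract, known as a 5′ TOP, through which LARP1 and mTORC1 control their translation. A start of this kind was searched at the RefSeq transcription start of each gene on its own strand, as a C followed by at least 4 bases that are each C or T. It was found in 12 of the 51 members in the RefSeq promoter table (23.5%), against 4.04% of the 27305 genes there and 63.2% of 68 ribosomal protein genes. The members were EEF1A1, EEF2, EIF2A, EIF2D, EIF2S3, EIF2S3B, EIF3D, EIF3F, EIF3K, EIF3M, EIF4A2 and EIF4B. For 6 of them, chosen as the abundant elongation factors, the eIF3 subunits with the longest tracts and a helicase cofactor, the window from 10 bases before the start to 20 bases from it is shown, 5′ to 3′, with the tract in capitals.
EEF1A1: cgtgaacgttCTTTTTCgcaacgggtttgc
EEF2: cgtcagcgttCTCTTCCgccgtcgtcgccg
EIF3D: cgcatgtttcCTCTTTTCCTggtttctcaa
EIF3F: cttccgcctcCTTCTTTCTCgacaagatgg
EIF3K: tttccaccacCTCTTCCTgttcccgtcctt
EIF4B: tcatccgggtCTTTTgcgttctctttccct

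On GRCh38.p14 these windows lie at chr6:73521013-73521042 (minus strand) for EEF1A1, chr19:3985444-3985473 (minus) for EEF2, chr22:36529147-36529176 (minus) for EIF3D, chr11:7987327-7987356 (plus) for EIF3F, chr19:38619178-38619207 (plus) for EIF3K and chr12:53006446-53006475 (plus) for EIF4B. The tracts run from 5 bases in EIF4B to 10 in EIF3D and EIF3F. The 12 members had a median LPS ratio of -0.08 in HT29 and -0.06 in HCT116, and 1 and 5 of them lay above 0. The 36 measured members of the table with another start had medians of -0.06 and -0.01, with 8 and 16 above 0. As the search used 1 RefSeq start per gene, these 36 may include genes with a tract at a start not searched. Between the lines, 9 of the 12 were called, 4 higher in HT29 and 5 in HCT116, against 20 and 9 of 36. Over all genes, 76.6% were called, 38% higher in HT29 and 38.6% higher in HCT116. These values describe RNA levels only, and a match to the tract is not evidence of control through it.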

How the data were processed

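The authors deposited raw counts per gene for the 4 libraries. According to the methods and the submitters' processing notes, reads were trimmed (cutadapt 1.9, Trimmomatic 0.39), aligned to hg38 with HISAT2 2.1.0 and counted with featureCounts 2.0.1. For strand, multi-mapping and overlap, the options are not given in the sources used. Genes were matched to GENCODE 44 and RefSeq (GRCh38.p14). Members and lists were chosen with earlier results of these data known.

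From the counts, TMM-normalized CPM, log2 ratios (prior count 2, minimum mean 1 CPM) and 95% Clopper-Pearson intervals, which cover counting error only, were computed in R 4.3.3. edgeR 4.0.16 quasi-likelihood tests used Benjamini-Hochberg adjustment over all genes at 0.05, with DESeq2 1.42.0 as an alternative, and were tested on simulated data. Copies were found with minimap2 2.31. The threshold of 0.58 follows the study's methods for another data type. Per-library values were given by rule for the 4 largest ratios in each line (mean of at least 5 CPM), LPS calls, the 6 largest line differences each way, the highest gene of each role, and paralog sets, and other genes were named after their values were seen. A partner gene that the rule would name is not reported here.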

Additional observations from a re-analysis of the deposited data

Results flagged for a closer look

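For 8 members the counting intervals of the LPS ratio lay clear of 0 in opposite directions in the 2 lines, against 4.45% of the 12085 genes measured in both. With 1 library per condition, no test of that difference was made. EEF1D, the largest case, was -3.91 in HT29 and 2.59 in HCT116, and has a copy on an alternate contig. The others were small. EIF2S2 was -0.163 and 0.0808, EIF3I -0.0513 and 0.100, EIF3L -0.152 and 0.0752, EIF4EBP1 -0.187 and 0.147 and EIF5A -0.0605 and 0.0435, each lower with LPS in HT29 and higher in HCT116. EIF4A2 was 0.0904 in HT29 and -0.0888 in HCT116, and EIF4G1 0.0551 and -0.0349. With length and GC trends removed, EIF5A in HCT116 was -0.0188 and EIF4G1 in HT29 was 0.00607.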

How the results depend on the processing

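Counts of members past 0.58 and the median ratios kept within the same range under other scalings, prior counts of 0.5 and 5, no filter, a 5 CPM minimum and removal of length and GC trends. Leaving out members with a copy or over 50% exon overlap, chosen after the data were seen, gave 1 in HT29 and 0 in HCT116 in place of 4 and 2. For LPS over both lines, 2 members were called, against 1 with DESeq2, 1 with DESeq2 size factors in edgeR and 0 without the line as a term. Between the lines, 41 to 46 members were called when a library was left out, against 48, and 36 of the 48 were called in every setting. Signs turned in EEF1D (-0.15 with all libraries), at 1.02 without the HT29 LPS library and 1.91 without the HCT116 LPS library. EEF1D was at 0.10 without LPS as a term, and lowest, at -2.91, without the HT29 control. They turned as well in EIF3C (0.26 with all libraries), at -0.67 without the HT29 control and -0.02 without the HCT116 LPS library. The highest value of EIF3C was 0.97, without the HT29 LPS library. Signs also turned in EIF1AD, EIF2B5, EIF2D, EIF2S3B and EIF5AL1, which were not called with all libraries. The cause was not tested. Where a library was left out, the lone library of a line was assumed to vary like the others. Counts of 39 to 126 in EIF4E3 limit its ratio to a wide interval.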
